A study of Homo sapiens with 24 samples.

Results

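The genes described here are 50 components of WNT signalling, namely 13 ligands, 12 receptors, 11 secreted antagonists, 5 membrane and R-spondin modulators, 6 transcription factors with β-catenin, and 3 intracellular feedback genes. They were taken from a list of WNT genes that leaves out those marking the roof plate, and each had to be present in a deposited count table under its gene symbol. All 50 were found among the 61544 rows of the organoid table and 25 among the 10221 rows of the table for neural progenitor cells (NPCs). Both tables hold RNA sequencing of poly(A) transcripts from derivatives of the human embryonic stem cell line H9. The groups of both systems carried a lentiviral short hairpin RNA and had been kept under puromycin at 1 µg/ml. The NC group had a scrambled hairpin and is labelled wild type, and the sh1 and sh4 groups each had 1 of 2 hairpins labelled as knocking down KDM2A, an enzyme that demethylates histone H3 at lysine 36. Each group had 5 libraries in NPCs and 3 in cerebral organoids at day 30, 24 libraries in all. Nothing in the labels ties the replicates to separate cultures or transductions, so the p-values reflect the spread among these libraries alone, and that spread may be technical.

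WNT ligands are secreted lipid-modified proteins that bind a Frizzled receptor together with LRP5 or LRP6. Without a ligand, a destruction complex built on AXIN and APC marks β-catenin for degradation, and with one, β-catenin accumulates and turns on target genes with LEF1 and TCF factors, among them AXIN2, NKD1, SP5, RNF43 and ZNRF3, whose products feed back on the pathway. In the early neural tube WNT signals favour posterior and dorsal fates, while secreted antagonists and low WNT activity at the anterior end allow the forebrain to form.

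Levels are in CPM, the usual unit of counts scaled to library size, corrected for library composition with TMM, and are given as mean ± SD over n = 5 NPC or n = 3 organoid libraries. Changes are log2 fold changes from the quasi-likelihood test of edgeR, with Benjamini-Hochberg adjustment over all genes of a table. Genes with an adjusted p under 0.05 and at least a 2-fold change were called, following the thresholds of the series' design text. The sh1 and sh4 comparisons share their NC libraries. Library totals were 12733888 to 20185306 counts in NPCs and 15899243 to 18853737 in organoids. KDM2A measured 186 ± 15.3 CPM with NC, 92.1 ± 4.15 CPM with sh1 and 95.1 ± 4.21 CPM with sh4 in NPCs, with log2 fold changes of -1.02 (SE 0.055, adjusted p = 5.13e-12) and -0.97 (SE 0.055, adjusted p = 7.36e-12). In organoids it measured 100.5 ± 4.01 CPM with NC, 110.4 ± 6.98 CPM with sh1 and 101 ± 4.89 CPM with sh4, so the libraries labelled sh1 or sh4 did not have less KDM2A transcript than NC and the labels could not be checked on it. The NPC table was selected: 99.3% of its 9860 tested genes had an adjusted p under 0.05 for sh1 against NC, and it lists 50.8% of protein-coding genes. How its rows were chosen is not stated. All 25 members listed there passed that level too, so an adjusted p under 0.05 for sh1 against NC sets no listed gene apart. Shares of all tested genes given for NPCs are shares of this selected set. The 25 members outside the NPC table are WNT2, WNT3, WNT5B, WNT6, WNT7A, WNT7B, WNT10A, WNT11, WNT16, FZD1, FZD4, FZD9, SFRP5, FRZB, DKK1, DKK2, DKK4, WIF1, NOTUM, RSPO3, LGR5, APCDD1, LEF1, TCF7 and NKD2, and they were not analysed here in NPCs.

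Markers of other cell types moved with the organoid groups. The summed level of 9 mesenchyme markers was 3006 to 4422 CPM with NC, 20690.0 to 23090.0 CPM with sh1 and 39650.0 to 48690.0 CPM with sh4, and that of 9 roof plate, hem and choroid plexus markers 107 to 266, 1031 to 2204 and 4281 to 9098 CPM. The 10 neural progenitor markers summed to 3127 to 3612, 2685 to 2809 and 1285 to 1707 CPM, the 8 neuron markers to 2408 to 2628, 1031 to 1392 and 206 to 783 CPM, the 7 epithelium markers to 661 to 727, 456 to 613 and 1719 to 2354 CPM, and the 7 pluripotent cell markers to 674 to 965, 71.5 to 77.8 and 71.5 to 97.6 CPM. Organoids labelled sh4 thus had the most mesenchyme and choroid plexus transcripts and the fewest progenitor and neuron transcripts, and those labelled sh1 lay between them and NC. None of the 9 mesenchyme markers was at 0 in any organoid group. Sums follow the most abundant markers of a list. Of the 10 progenitor markers, 7 were called lower with sh1 (median log2 fold change -1.78), beside 7.95% of all tested genes. With sh4, 8 were called lower (median -3.73), beside 15.5%, and PROM1 rose. Of the 8 neuron markers, none was called with sh1, beside 7.95% of all tested genes called lower. With sh4, 7 of them were called lower, beside 15.5%. In bulk RNA, fewer cells of a type and less RNA per cell cannot be told apart, and the part of these shifts in the organoid results below was not tested. Of all tested NPC genes, 6.31% were called higher and 12.1% lower with sh1, and 6.55% and 11.6% with sh4. In NPCs, 7 of the 10 progenitor markers were in the table and 6 were tested. FABP7 (5.89 ± 1.03 CPM with NC, 28.99 ± 1.56 CPM with sh1 and 28.4 ± 2.85 CPM with sh4), PROM1 and SOX1 rose with both hairpins, PAX6 fell with sh4 (-2.42 (adjusted p = 2.84e-14)), and HES5 was near 0 (0.636 ± 0.269 CPM with NC, 0.105 ± 0.0805 CPM with sh1 and 0.131 ± 0.158 CPM with sh4). The 7 mesenchyme markers listed summed to 6367 to 7067 CPM with NC, 4767 to 5795 CPM with sh1 and 5633 to 6447 CPM with sh4, sums made up mostly of COL3A1 (6157 ± 284 CPM with NC, 4229.7 ± 396 CPM with sh1 and 4508 ± 352 CPM with sh4, not called). The other 6, COL1A2, DCN, LUM, PRRX1, THY1 and TWIST1, rose with sh4, and LUM and THY1 also rose with sh1. The 7 pluripotent cell markers summed there to 998 to 1080.0, 1651 to 1761 and 1503 to 1599 CPM. Of these 5 rose and 1 fell with each hairpin, and the one that fell was POU5F1 (356 ± 79.8 CPM with NC, 100.2 ± 11.7 CPM with sh1 and 136 ± 12.7 CPM with sh4). The part of these markers in the NPC results was not tested.

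**Figure D1:**
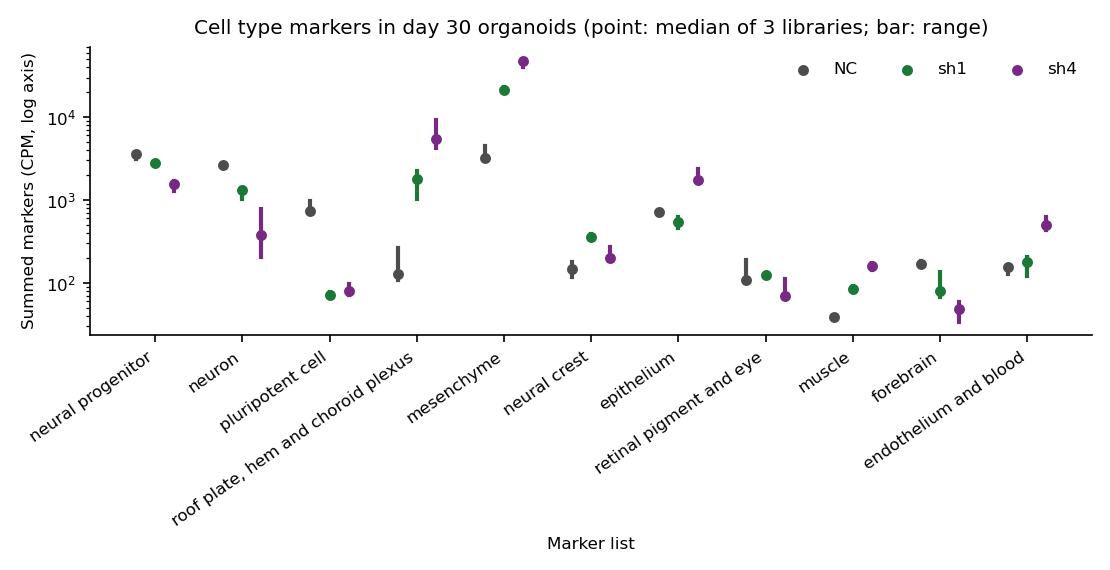
Summed level of each cell type marker list in day 30 organoids (CPM, log axis) for the NC, sh1 and sh4 labels. Points are medians of 3 libraries and bars span the lowest to the highest. Mesenchyme and choroid plexus lists are lowest in NC and highest in sh4, and the neuron list has the opposite order.

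KDM2A has a zinc finger domain that binds CG dinucleotides without methylation, so the promoters of members that moved in organoids are shown for their base content. RefSeq promoters (GRCh38.p14, the 250 bases before a transcript start) were held for 32 of the 50 members, in 38 entries. The entries had a median of 21 CG dinucleotides (range 0 to 44), and the median over 35116 promoters was 11. The motif ATCAAAG, bound by TCF and LEF factors, or its reverse complement CTTTGAT was found on either strand in 1 member entry, that of SP5, against 2.26% of all promoters. The SP5 window (chr2:170715087-170715336, plus strand) is printed with that match in capitals, and its first base lies 109 bases before the start.
SP5: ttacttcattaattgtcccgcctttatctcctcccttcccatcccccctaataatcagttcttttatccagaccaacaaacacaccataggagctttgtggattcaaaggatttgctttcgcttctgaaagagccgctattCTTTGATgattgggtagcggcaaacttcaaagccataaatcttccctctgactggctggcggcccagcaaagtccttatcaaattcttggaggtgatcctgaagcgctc
The windows of FZD5 (chr2:207769907-207770156, minus strand), FZD8 (chr10:35642297-35642546, minus strand), DKK1 (chr10:52314031-52314280, plus strand) and WNT9A (chr1:227947933-227948182, minus strand) are printed 5′ to 3′ on the gene's strand with CG dinucleotides in capitals. The first pair fell in organoids of both labels and the second pair rose in those labelled sh4. KDM2A transcript was not lower than NC in organoids of either label. In NPCs, where it was lower, FZD8 rose with both hairpins and FZD5 rose with sh4. WNT9A was not called there, and DKK1 was not in the NPC table.
FZD5: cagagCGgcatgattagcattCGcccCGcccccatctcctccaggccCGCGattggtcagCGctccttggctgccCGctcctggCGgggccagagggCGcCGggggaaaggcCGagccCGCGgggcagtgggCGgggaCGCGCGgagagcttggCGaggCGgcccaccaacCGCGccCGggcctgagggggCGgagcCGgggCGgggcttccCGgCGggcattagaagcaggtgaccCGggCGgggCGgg
FZD8: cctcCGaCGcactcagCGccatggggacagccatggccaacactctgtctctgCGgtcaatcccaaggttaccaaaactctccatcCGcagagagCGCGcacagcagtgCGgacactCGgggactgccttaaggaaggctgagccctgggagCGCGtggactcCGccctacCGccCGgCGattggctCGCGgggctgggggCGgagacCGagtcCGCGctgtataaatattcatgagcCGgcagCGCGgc
DKK1: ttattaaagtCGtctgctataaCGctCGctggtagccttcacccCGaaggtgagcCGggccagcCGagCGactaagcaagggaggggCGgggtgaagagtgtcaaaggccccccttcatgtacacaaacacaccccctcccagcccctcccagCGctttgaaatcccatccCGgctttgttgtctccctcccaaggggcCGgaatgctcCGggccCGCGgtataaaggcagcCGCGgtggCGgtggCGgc
WNT9A: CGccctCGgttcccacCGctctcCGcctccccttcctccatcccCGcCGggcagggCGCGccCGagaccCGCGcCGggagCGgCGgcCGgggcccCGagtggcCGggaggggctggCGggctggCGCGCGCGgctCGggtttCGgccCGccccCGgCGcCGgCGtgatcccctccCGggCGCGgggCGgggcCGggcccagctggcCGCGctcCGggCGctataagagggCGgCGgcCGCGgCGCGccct
The windows hold 30 CG dinucleotides for FZD5, 24 for FZD8, 18 for DKK1, 44 for WNT9A and 6 for SP5. The windows of FZD5, FZD8, DKK1 and WNT9A were picked for display, and all hold more than the median of 11. Entries of other members that moved in organoids lie on both sides of it, with 8 for RSPO3 and 38 for WNT2. The part of CG content in these changes was not tested. RefSeq starts of the printed genes differ from their GENCODE gene starts, for FZD5 207769906 against 207769563. Bases just after the RefSeq starts were looked for in GENCODE transcripts of these genes and not found. That search could not succeed, because the stretch looked for began upstream of each GENCODE gene start. It therefore says nothing about the sequence or strand of the printed windows. The printed windows are a description of sequence, and neither methylation nor binding was measured.

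In NPCs with sh1, 3 of 25 members rose, beside 6.31% of all tested genes, and 2 fell, beside 12.1%. With sh4, 4 rose, beside 6.55% of tested genes, and 5 fell, beside 11.6%. The secreted antagonists SFRP1 and SFRP2 and the receptor FZD8 rose with both hairpins, and the ligand WNT10B fell with both. The feedback genes AXIN2 and NKD1, the receptor FZD10 and the ligand WNT4 fell with sh4, and SFRP4 fell with sh1. Between the hairpins, 6 members were higher with sh1, beside 2.18% of tested genes, and 1 was lower, beside 2.42%. The median log2 fold change of the 25 members was 0.24 with sh1 and 0.076 with sh4, beside 0.11 and 0.031 over all tested genes.

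**Figure D2:**
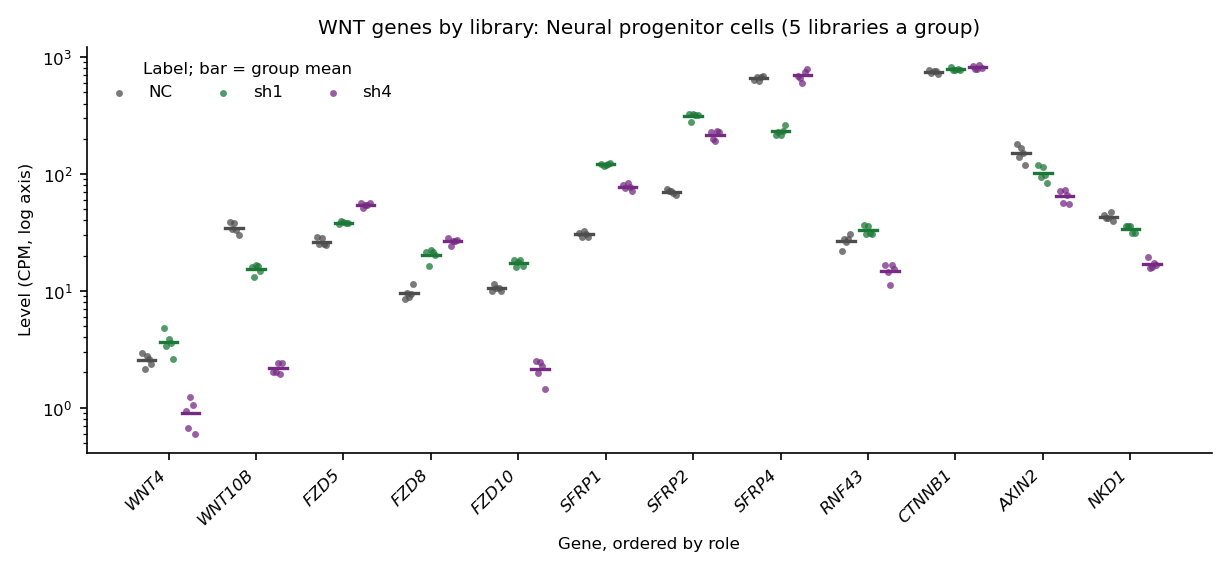
Level of 12 WNT genes in each NPC library (CPM, log axis), with 5 libraries each for NC, sh1 and sh4 and a bar at each group mean. SFRP1, SFRP2 and FZD8 lie above NC with both hairpins, WNT10B below it, and WNT10B, FZD10 and NKD1 are lowest with sh4.

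Of the 4 ligands in the NPC table, WNT10B fell with both hairpins and WNT4 with sh4. WNT10B (chromosome 12, 48965340 to 48971763, GRCh38 as in GENCODE v29, used for all gene positions) acts through β-catenin. WNT10B measured 38.4, 33.8, 37.7, 33.3 and 30.2 CPM in the 5 NC libraries, 15.8, 13.2, 16.7, 16.4 and 14.6 CPM with sh1 and 2.03, 2.02, 2.43, 1.95 and 2.43 CPM with sh4. The 3 groups did not overlap, and the sh4 libraries were all under 3 CPM. Its log2 fold change was -1.18 (SE 0.083, adjusted p = 2.19e-10) with sh1, -3.99 (SE 0.11, adjusted p = 2.43e-16) with sh4, and 2.81 (SE 0.11, adjusted p = 1.28e-13) for sh1 over sh4. WNT4 (chromosome 1, 22117305 to 22143969), known for its part in kidney and gonad development, was low throughout. WNT4 measured 2.92, 2.16, 2.77, 2.60 and 2.35 CPM in the 5 NC libraries, 4.76, 3.35, 3.86, 3.58 and 2.62 CPM with sh1 and 0.934, 0.673, 1.24, 1.06 and 0.594 CPM with sh4. The sh4 libraries were lowest, and the NC and sh1 libraries overlapped. Its change was 0.50 (adjusted p = 0.00885) with sh1, which did not reach the 2-fold limit, and -1.49 (SE 0.21, adjusted p = 1.92e-06) with sh4, where it fell. The remaining ligands were not called. WNT5A, best known for planar cell polarity signalling without β-catenin, measured 35.6 ± 1.42 CPM with NC, 18.1 ± 3.09 CPM with sh1 and 27.4 ± 2.02 CPM with sh4, with log2 fold changes of -0.98 (adjusted p = 1.58e-08) and -0.38 (adjusted p = 8.05e-04). WNT9A measured 18.9 ± 1.89 CPM with NC, 14.1 ± 1.14 CPM with sh1 and 24.6 ± 3.74 CPM with sh4, with -0.42 (adjusted p = 8.26e-04) and 0.38 (adjusted p = 0.00172).

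Of the 9 receptors in the NPC table, FZD8 rose with both hairpins, FZD5 rose with sh4 and FZD10 fell with sh4. FZD8 and FZD5 are closely related Frizzled receptors expressed in the anterior neural plate. FZD8 measured 8.45, 9.53, 8.81, 9.33 and 11.5 CPM in the 5 NC libraries, 21.4, 16.4, 22.3, 21.5 and 20.2 CPM with sh1 and 28.1, 24.3, 26.7, 26.8 and 27.4 CPM with sh4. All libraries of both hairpins were above every NC library. The log2 fold change was 1.09 (SE 0.094, adjusted p = 3.49e-09) with sh1 and 1.48 (SE 0.093, adjusted p = 3.34e-11) with sh4. FZD5 measured 28.6, 25.1, 28.3, 25.1 and 24.7 CPM in the 5 NC libraries, 37.0, 39.2, 38.7, 38.0 and 38.2 CPM with sh1 and 56.0, 50.7, 54.0, 54.4 and 56.9 CPM with sh4. Again the groups were fully separated, in the order NC, sh1, sh4. FZD5 changed by 0.54 (SE 0.057, adjusted p = 5.47e-08) with sh1, under the 2-fold limit, and rose by 1.05 (SE 0.056, adjusted p = 3.43e-12) with sh4. Scaling by library size alone put FZD8 with sh1 at 0.96 and FZD5 with sh4 at 0.90, both short of the call. FZD10 (chromosome 12, 130162459 to 130165740) is a Frizzled receptor of the dorsal neural tube. FZD10 measured 9.96, 11.3, 10.5, 10.6 and 9.97 CPM in the 5 NC libraries, 18.2, 16.03, 17.5, 18.4 and 16.3 CPM with sh1 and 2.53, 1.97, 2.48, 2.27 and 1.46 CPM with sh4. The libraries with sh1 were above NC and those with sh4 far below it. Its log2 fold change was 0.72 (SE 0.093, adjusted p = 7.44e-07) with sh1, -2.29 (SE 0.12, adjusted p = 1.44e-12) with sh4 and 3.01 (SE 0.11, adjusted p = 7.95e-14) between the hairpins. The other 6 receptors had changes under 2-fold with either hairpin. FZD7 came closest, at 159 ± 4.01 CPM with NC, 248 ± 13.8 CPM with sh1 and 312 ± 13.4 CPM with sh4, a change of 0.64 (adjusted p = 1.87e-10) with sh1 and 0.97 (adjusted p = 3.46e-13) with sh4. FZD2 changed by 0.73 and 0.84, FZD3 by 0.25 and 0.0030, FZD6 by -0.21 and -0.16. The co-receptors LRP5 and LRP6 changed by -0.25 and 0.43 with sh1 and by 0.16 and 0.22 with sh4.

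Secreted Frizzled-related proteins carry a Frizzled-like domain and bind WNT ligands outside the cell. SFRP1 measured 31.2, 28.8, 32.2, 30.8 and 29.1 CPM in the 5 NC libraries, 121, 116, 119.7, 122 and 123 CPM with sh1 and 80.3, 75.3, 83.6, 77.4 and 71.2 CPM with sh4. SFRP2 measured 74.1, 70.9, 71.0, 69.0 and 65.9 CPM in the 5 NC libraries, 326, 277, 323, 318 and 318 CPM with sh1 and 226, 200.1, 193, 232 and 228 CPM with sh4. For both genes the 3 groups were separated, with sh1 highest and NC lowest. SFRP1 rose by 1.99 (SE 0.051, adjusted p = 4.10e-16) and 1.35 (SE 0.051, adjusted p = 2.31e-14) with sh1 and sh4. SFRP2 (chromosome 4, 153780592 to 153789120) rose by 2.15 (SE 0.061, adjusted p = 9.26e-16) and 1.62 (SE 0.060, adjusted p = 1.91e-14). The difference between the hairpins was 0.63 (adjusted p = 3.04e-09) for SFRP1 and 0.53 (adjusted p = 4.91e-07) for SFRP2, below 2-fold. SFRP4 (chromosome 7, 37905932 to 38025695) behaved otherwise. SFRP4 measured 632, 679, 619, 674 and 694 CPM in the 5 NC libraries, 216, 230.0, 216, 235 and 261 CPM with sh1 and 688, 663, 594, 748 and 783 CPM with sh4. Libraries with sh1 were all lower than the rest, and those with NC and sh4 overlapped. It fell by -1.51 (SE 0.069, adjusted p = 5.04e-13) with sh1 and differed by 0.076 (adjusted p = 0.286) with sh4. The log2 fold change of sh1 over sh4 was -1.59 (SE 0.069, adjusted p = 7.94e-13). DKK3, a divergent member of the Dickkopf family, measured 45.9 ± 3.81 CPM with NC, 38.2 ± 4.42 CPM with sh1 and 68.2 ± 7.80 CPM with sh4 and was not called (-0.27 (adjusted p = 0.00719) and 0.57 (adjusted p = 5.22e-06)).

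RNF43 and ZNRF3 are membrane ubiquitin ligases that remove Frizzled receptors from the cell surface, and both are turned on by β-catenin. RNF43 measured 21.8, 27.7, 26.3, 27.6 and 30.9 CPM in the 5 NC libraries, 36.6, 30.9, 35.6, 31.1 and 30.9 CPM with sh1 and 16.6, 14.6, 11.1, 16.5 and 15.4 CPM with sh4. The sh4 libraries were lowest, and NC and sh1 overlapped. RNF43 (chromosome 17, 58352500 to 58417595) changed by 0.30 (adjusted p = 0.00895) with sh1 and -0.85 (adjusted p = 4.11e-07) with sh4, neither past 2-fold, and was higher with sh1 than with sh4 by 1.15 (SE 0.10, adjusted p = 4.51e-08). ZNRF3 measured 80.8 ± 6.91 CPM with NC, 54.4 ± 4.60 CPM with sh1 and 43.4 ± 2.91 CPM with sh4, with changes of -0.57 (adjusted p = 2.94e-07) and -0.90 (adjusted p = 6.00e-10), and was not called.

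CTNNB1 (chromosome 3, 41194741 to 41260096), which encodes β-catenin, was not called. CTNNB1 measured 768, 732, 766, 754 and 715 CPM in the 5 NC libraries, 827, 781, 781, 794 and 775 CPM with sh1 and 837, 788, 788, 847 and 809.5 CPM with sh4. Groups of both hairpins lay just above NC and overlapped each other. Its log2 fold change was 0.083 (SE 0.039, adjusted p = 0.0465) with sh1 and 0.12 (SE 0.039, adjusted p = 0.00638) with sh4. These small values turn to -0.054 and -0.021 when libraries are scaled by size alone. TCF7L1, mainly a repressor, changed by -0.33 and 0.046, and TCF7L2 by 0.24 and 0.38, without a call. SP5, a transcription factor and direct WNT target, was near the limit of detection at 0.897 ± 0.392 CPM with NC, 1.68 ± 0.0609 CPM with sh1 and 0.634 ± 0.188 CPM with sh4. It was called between the hairpins (1.39 (adjusted p = 2.59e-04)) and in neither comparison with NC.

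AXIN2 and NKD1 are negative feedback genes, the first a scaffold of the destruction complex and the second a binder of Dishevelled. AXIN2 measured 179.8, 139.9, 167, 151 and 118 CPM in the 5 NC libraries, 119.6, 94.6, 115, 98.6 and 83.3 CPM with sh1 and 71.6, 56.6, 72.8, 65.8 and 55.4 CPM with sh4. All sh4 libraries were below every sh1 library, and the sh1 and NC libraries overlapped. AXIN2 (chromosome 17, 65528563 to 65561647) fell with sh4 by a log2 fold change of -1.23 (SE 0.11, adjusted p = 7.11e-09), and with sh1 its change of -0.57 (SE 0.11, adjusted p = 9.96e-05) did not reach 2-fold. NKD1 measured 44.6, 41.6, 42.0, 46.9 and 39.8 CPM in the 5 NC libraries, 36.03, 35.9, 35.6, 31.5 and 31.3 CPM with sh1 and 19.3, 15.5, 16.03, 17.4 and 16.5 CPM with sh4. The groups of NKD1 (chromosome 16, 50548330 to 50649249) were fully separated, with sh4 lowest. Its change was -0.34 (SE 0.069, adjusted p = 1.62e-04) with sh1 and -1.34 (SE 0.072, adjusted p = 3.44e-12) with sh4, where it fell. For sh1 over sh4 it was 1.01 (SE 0.072, adjusted p = 1.64e-09), a call that sat at the 2-fold limit and was lost, at 0.98 to 1.00, without any one of sh1 replicates 1, 2 and 3 or sh4 replicates 2, 3 and 5.

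Levels were also compared per kilobase of all annotated exons of a gene joined, 11927 bases for CTNNB1 and 3606 for SFRP4. Transcripts can be shorter than that, so the order of members depends on the length used. With it, the NC level in NPCs was highest for SFRP4 (183 ± 8.97 CPM per kb), CTNNB1 (62.6 ± 1.92) and FZD7 (41.2 ± 1.04). SFRP2 followed at 34.5 ± 1.48, and FZD6 (29.5 ± 1.502), AXIN2 (28.9 ± 4.57) and FZD3 (26.6 ± 0.558) lay within about 1 SD of AXIN2 of each other. WNT10B was the most abundant listed ligand in NC (13.2 ± 1.29 CPM per kb), and WNT5A (4.81 ± 0.192) and WNT9A (4.76 ± 0.477) did not differ beyond their spread. With sh4 the order of those ligands changed: WNT9A was at 6.18 ± 0.943, WNT5A at 3.71 ± 0.273 and WNT10B at 0.827 ± 0.0900 CPM per kb.

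The other WNT pathway genes, 60 in all, had 44 in the NPC table, of which 4 rose and 4 fell with sh1 (6.31% and 12.1% of all tested genes) and 4 rose and 1 fell with sh4 (6.55% and 11.6%). Among surface co-receptors and modulators, the proteoglycan GPC4 measured 758 ± 14.3 CPM with NC, 1377 ± 87.8 CPM with sh1 and 2208 ± 199 CPM with sh4 and rose with sh4 (1.54 (adjusted p = 3.01e-14)), and the receptor kinase ROR1, which binds WNT5A, rose with both hairpins (1.11 (adjusted p = 1.01e-12) and 1.29 (adjusted p = 7.41e-14)). GPC3 rose with sh1 (1.38 (adjusted p = 1.54e-12)), and the Dickkopf receptor KREMEN1 fell with both (-1.42 (adjusted p = 2.14e-12) and -1.07 (adjusted p = 7.57e-11)). In the destruction complex and Dishevelled list 1 of 14 was called with sh1, DACT2 (-1.37 (adjusted p = 5.15e-05)), and none with sh4. The planar cell polarity cadherin CELSR3 rose with both hairpins (1.23 (adjusted p = 9.41e-13) and 1.13 (adjusted p = 2.38e-12)), and PRICKLE1 fell with sh1 (-1.06 (adjusted p = 4.71e-09)). The cyclin gene CCND1, a target of many growth signals, rose with sh1 (1.41 (adjusted p = 4.10e-16)). None of the 8 nuclear co-factors in the table was called in either comparison with NC, nor was the secretion gene WLS.

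In organoids labelled sh1, 11 of 48 tested members were higher than in NC, beside 12.1% of all tested genes, and 9 were lower, beside 7.95%. In those labelled sh4, 12 were higher, beside 20%, and 11 lower, beside 15.5%. The sh4 libraries also stood apart in the share of counts from mitochondrial genes, 5.05 to 6.02% against 3.07 to 3.50% in NC and 3.14 to 3.29% in sh1, and in that of their 10 most abundant genes, 11.8 to 14.4% against 5.38 to 5.81% and 6.73 to 7.41%. The part of these in the sh4 values was not tested. Between the labels, 5 were higher with sh1, beside 7.82%, and 7 lower, beside 11.2%. The antagonists DKK2, FRZB and WIF1 rose under both labels, as did the ligands WNT2 and WNT10B. The receptors FZD3, FZD5 and FZD8 and the ligand WNT7A fell under both. The median member change was 0.32 and 0.24, beside 0.019 and -0.0055 over all tested genes. The 2 members that did not pass the filter on low counts were WNT10A, with 0 to 2 counts per NC library, and DKK4, with 0 counts in every NC and sh1 library.

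**Figure D3:**
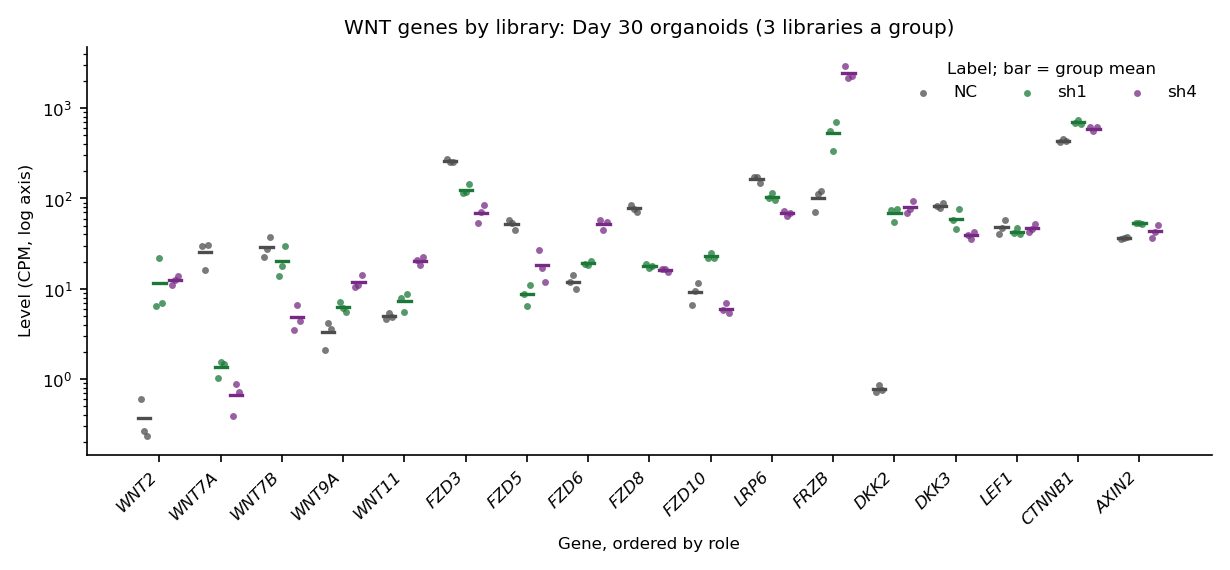
Level of 17 WNT genes in each day 30 organoid library (CPM, log axis), with 3 libraries each for the labels NC, sh1 and sh4 and a bar at each group mean. DKK2 and WNT2 are near or under 1 CPM in NC and above 6 CPM under both other labels, and WNT7A shows the opposite order.

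Among ligands, WNT7A fell most. WNT7A (chromosome 3, 13816258 to 13880121) and WNT7B are ligands of the central nervous system that act through β-catenin. WNT7A measured 30.0, 16.2 and 30.7 CPM in the NC organoids, 1.04, 1.54 and 1.48 CPM in those labelled sh1 and 0.390, 0.882 and 0.719 CPM in those labelled sh4. No library of either label came near the NC range. The log2 fold change was -4.23 (SE 0.32, adjusted p = 9.87e-06) for sh1 and -5.24 (SE 0.35, adjusted p = 1.65e-06) for sh4. WNT7B measured 22.8, 27.7 and 37.8 CPM in the NC organoids, 13.9, 18.1 and 29.4 CPM in those labelled sh1 and 3.51, 6.71 and 4.38 CPM in those labelled sh4. Those labelled sh4 were lowest, and sh1 overlapped NC. WNT7B (chromosome 22, 45920362 to 45977129) fell by -2.59 (SE 0.33, adjusted p = 8.47e-05) with the sh4 label and changed by -0.52 (adjusted p = 0.18) with sh1, and sh1 was higher than sh4 by 2.07 (SE 0.33, adjusted p = 9.56e-04). WNT2 (chromosome 7, 117275451 to 117323289), known from lung and liver development, was almost undetected in NC. WNT2 measured 0.607, 0.267 and 0.234 CPM in the NC organoids, 6.53, 21.8 and 6.91 CPM in those labelled sh1 and 11.2, 12.4 and 13.8 CPM in those labelled sh4. Replicate 2 of sh1 stood well above its group, and both labels were fully above NC. WNT2 rose by 4.96 (SE 0.60, adjusted p = 1.61e-04) with sh1 and 5.05 (SE 0.60, adjusted p = 4.99e-05) with sh4, and without sh1 replicate 2 the first value was 4.16.

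WNT11 and WNT9A rose with the sh4 label. WNT11 (chromosome 11, 76186325 to 76210736) is a ligand of cell movement that mostly acts without β-catenin. WNT11 measured 4.64, 5.44 and 4.87 CPM in the NC organoids, 7.84, 5.50 and 8.77 CPM in those labelled sh1 and 20.7, 18.6 and 22.4 CPM in those labelled sh4. The sh4 libraries were clearly highest. WNT11 changed by 0.56 (adjusted p = 0.0286) with sh1, rose by 2.04 (SE 0.18, adjusted p = 7.87e-06) with sh4, and was lower with sh1 than with sh4 by a log2 fold change of -1.48 (SE 0.17, adjusted p = 2.20e-04). WNT9A measured 2.10, 4.21 and 3.58 CPM in the NC organoids, 7.18, 6.15 and 5.54 CPM in those labelled sh1 and 10.5, 11.1 and 14.1 CPM in those labelled sh4. WNT9A (chromosome 1, 227918656 to 227947898) was lowest in NC and highest in sh4 without overlap. Its change was 0.93 (SE 0.25, adjusted p = 0.0131) with sh1 and 1.85 (SE 0.25, adjusted p = 1.16e-04) with sh4, of which the second passed 2-fold. Without NC replicate 2 the first also passed, at 1.15, as it did without sh1 replicate 3 at 1.00.

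Of the remaining ligands, WNT10B, at 0.944 ± 0.403 CPM with NC, 7.28 ± 1.84 CPM with sh1 and 4.00 ± 1.57 CPM with sh4, rose with both labels (2.94 (adjusted p = 3.06e-04) and 2.07 (adjusted p = 0.00116)). WNT5B measured 23.1 ± 0.867 CPM with NC, 30.0 ± 13.5 CPM with sh1 and 49.4 ± 8.25 CPM with sh4 and rose with sh4 (1.10 (adjusted p = 0.00371)), a call lost without sh4 replicate 3 (0.96) and with scaling by library size alone (0.82). WNT6 fell with sh1 from 2.25 ± 1.02 to 0.293 ± 0.335 CPM (-2.92 (adjusted p = 0.00739), and -4.27 without sh1 replicate 1). With sh4 WNT6 measured 5.64 ± 1.20 CPM, uncalled against NC, and sh1 was lower than sh4 by -4.24 (adjusted p = 9.77e-04), or -5.59 without sh1 replicate 1. WNT16, with group means under 2 CPM, was called lower with sh4 (-1.78 (adjusted p = 0.0204)), a call that did not hold without NC replicate 3 (-1.59), sh4 replicate 2 (-1.53) or sh4 replicate 3 (-1.36) and reached -2.77 without sh4 replicate 1. WNT16 was higher with sh1 than with sh4 by 2.23 (adjusted p = 0.00887), or 3.23 without sh4 replicate 1. WNT3, WNT4 and WNT5A were not called, with changes of 0.41, -0.40 and 0.54 for sh1 and 0.32, 0.33 and 0.73 for sh4.

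FZD3, FZD5 and FZD8 fell under both labels. FZD8 measured 85.8, 76.9 and 71.3 CPM in the NC organoids, 19.0, 16.9 and 18.1 CPM in those labelled sh1 and 16.5, 16.8 and 15.4 CPM in those labelled sh4. All libraries of both labels were about 4 times lower than NC, with little spread. FZD8 fell by -2.12 (SE 0.090, adjusted p = 9.23e-07) with sh1 and -2.27 (SE 0.091, adjusted p = 2.65e-07) with sh4, and the labels differed by 0.15 (adjusted p = 0.205). FZD5 measured 57.9, 54.0 and 45.1 CPM in the NC organoids, 8.83, 6.48 and 10.96 CPM in those labelled sh1 and 26.8, 16.9 and 11.8 CPM in those labelled sh4. Both labels were below NC, and the sh1 libraries were lowest. FZD5 fell by -2.58 (SE 0.29, adjusted p = 9.63e-05) and -1.504 (SE 0.27, adjusted p = 7.43e-04). It was lower with sh1 than with sh4 by -1.07 (SE 0.29, adjusted p = 0.0115), a call lost without sh1 replicate 2 (-0.89), without sh4 replicate 1 (-0.71) and with scaling by library size alone (-0.82). FZD3 is a receptor of planar cell polarity and axon guidance. FZD3 measured 272, 253 and 255 CPM in the NC organoids, 115, 119 and 143 CPM in those labelled sh1 and 53.1, 70.1 and 85.4 CPM in those labelled sh4. The groups did not overlap, in the order NC, sh1, sh4. FZD3 fell by -1.05 (SE 0.15, adjusted p = 4.42e-04) with sh1, just past 2-fold (-0.99 without sh1 replicate 1, which ends the call), and by -1.90 (SE 0.16, adjusted p = 5.01e-06) with sh4. For sh1 over sh4 it was 0.85 (adjusted p = 0.00158), uncalled, and passed 2-fold without sh4 replicate 3 (1.03) or scaled by library size alone (1.07). The 5 forebrain markers EMX1, EMX2, LHX2, OTX2 and SIX3 summed to 164 to 184 CPM in NC, 67.5 to 135 CPM in sh1 and 33.8 to 59.0 CPM in sh4, and their part in the fall of these receptors was not tested.

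FZD6 and FZD10 each rose under a single label. FZD6 measured 11.8, 14.2 and 9.85 CPM in the NC organoids, 19.0, 18.4 and 20.1 CPM in those labelled sh1 and 57.9, 44.5 and 55.6 CPM in those labelled sh4. The sh4 libraries were all more than 3 times above NC. FZD6, which also acts in planar cell polarity, changed by 0.68 (SE 0.14, adjusted p = 0.00386) with sh1, rose by 2.14 (SE 0.14, adjusted p = 1.75e-06) with sh4, and was lower with sh1 than with sh4 by -1.46 (SE 0.14, adjusted p = 1.07e-04). FZD10 measured 6.57, 9.39 and 11.6 CPM in the NC organoids, 22.1, 24.7 and 21.8 CPM in those labelled sh1 and 5.85, 6.94 and 5.39 CPM in those labelled sh4. Libraries labelled sh1 were highest, and NC and sh4 overlapped. FZD10 rose by 1.32 (SE 0.19, adjusted p = 4.73e-04) with sh1, changed by -0.60 (adjusted p = 0.0231) with sh4, and was higher with sh1 than with sh4 by 1.91 (SE 0.20, adjusted p = 1.36e-04). LRP6 (chromosome 12, 12116025 to 12267012) is the main co-receptor of ligands that act through β-catenin. LRP6 measured 175, 172 and 148 CPM in the NC organoids, 102, 114 and 97.1 CPM in those labelled sh1 and 72.4, 64.3 and 69.6 CPM in those labelled sh4. It was highest in NC and lowest in sh4 without overlap. LRP6 changed by -0.66 (SE 0.087, adjusted p = 2.70e-04) with sh1 and fell by -1.26 (SE 0.089, adjusted p = 2.21e-06) with sh4, while LRP5 was not called at 0.51 (adjusted p = 8.84e-04) and 0.78 (adjusted p = 2.46e-05). FZD1, FZD2, FZD4, FZD7 and FZD9 were not called, with changes from -0.27 (FZD9) to 0.52 (FZD7) for sh1 and from -0.86 (FZD9) to 0.92 (FZD4) for sh4.

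DKK2 had the largest change of all members. DKK2 (chromosome 4, 106921802 to 107283806) is a Dickkopf protein that binds LRP5 and LRP6. DKK2 measured 0.718, 0.853 and 0.762 CPM in the NC organoids, 75.2, 54.7 and 76.0 CPM in those labelled sh1 and 69.2, 76.2 and 93.2 CPM in those labelled sh4. Every NC library was under 1 CPM and every other library above 50 CPM. It rose by 6.45 (SE 0.22, adjusted p = 2.30e-07) with sh1 and 6.66 (SE 0.22, adjusted p = 1.06e-07) with sh4, and the difference between the labels was not called (-0.21 (adjusted p = 0.234), 95% interval -0.53 to 0.10). FRZB (chromosome 2, 182833275 to 182867162), also called SFRP3, is a secreted WNT binder best known from cartilage. FRZB measured 71.0, 112 and 120.0 CPM in the NC organoids, 562, 333 and 709 CPM in those labelled sh1 and 2960.3, 2144 and 2264 CPM in those labelled sh4. The groups were fully separated, in the order NC, sh1, sh4. FRZB rose by 2.40 (SE 0.29, adjusted p = 1.52e-04) and 4.60 (SE 0.32, adjusted p = 1.91e-06), and was lower with sh1 than with sh4 by -2.20 (SE 0.28, adjusted p = 3.17e-04). The summed mesenchyme markers moved in the same order as FRZB. So did the summed roof plate, hem and choroid plexus markers, and the muscle markers (37.7 to 39.6, 81.7 to 92.2 and 143 to 172 CPM with NC, sh1 and sh4). DKK2 rose with these lists against NC, but its sh1 and sh4 libraries overlapped. The part of these marker lists in the FRZB and DKK2 values was not tested. WIF1, which binds WNT ligands directly, rose from 0.274 ± 0.219 to 10.7 ± 1.32 and 6.02 ± 4.35 CPM (5.23 (adjusted p = 2.16e-04) and 4.41 (adjusted p = 2.55e-04)). NC held only 15 counts of WIF1 over 3 libraries, and those values became 5.94 and 5.11 without NC replicate 1, and the second was 3.69 without sh4 replicate 3.

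DKK1, the classical inhibitor of LRP5 and LRP6, measured 8.82 ± 4.00 CPM with NC, 7.61 ± 2.06 CPM with sh1 and 26.1 ± 2.25 CPM with sh4. It rose with sh4 (1.57 (adjusted p = 0.00108)), changed by -0.21 (adjusted p = 0.602) with sh1, and was lower with sh1 than with sh4 (-1.78 (adjusted p = 0.00124)). DKK3 (chromosome 11, 11963106 to 12009769) went the other way. DKK3 measured 82.3, 78.8 and 89.7 CPM in the NC organoids, 57.4, 45.9 and 76.1 CPM in those labelled sh1 and 39.3, 35.5 and 42.1 CPM in those labelled sh4. It was highest in NC and lowest in sh4 without overlap. DKK3 changed by -0.48 (SE 0.16, adjusted p = 0.0291) with sh1 and fell by -1.10 (SE 0.16, adjusted p = 1.81e-04) with sh4. SFRP1 measured 592 ± 47.4 CPM with NC, 731 ± 266 CPM with sh1 and 224 ± 122 CPM with sh4, fell with sh4 (-1.40 (adjusted p = 0.00978)) and was higher with sh1 than with sh4 (1.70 (adjusted p = 0.00602)). SFRP2 measured 107 ± 10.8 CPM with NC, 255 ± 137 CPM with sh1 and 62.1 ± 27.3 CPM with sh4, rose with sh1 (1.26 (adjusted p = 0.0217)) and was higher with sh1 than with sh4 (2.04 (adjusted p = 0.00229)). The rise of SFRP2 with sh1 lost its call without sh1 replicate 2 (0.74) or without any NC library (1.18 to 1.31). SFRP5, at 3.57 ± 1.13 CPM with NC, 11.5 ± 10.3 CPM with sh1 and 7.21 ± 1.74 CPM with sh4, was called higher with sh1 (1.68 (adjusted p = 0.0331)). Without sh1 replicate 2 that value was 0.63, and without any one NC library it was 1.44 to 1.82, none of them called. SFRP4, with group means under 3 CPM, was called lower with both labels (-1.80 (adjusted p = 0.0365) and -1.65 (adjusted p = 0.036)) although its groups overlapped. Without NC replicate 1 those values were -0.82 and -0.68, and the calls were also lost without any sh1 library for sh1 (-2.08 to -1.58) and without sh4 replicate 1 or 3 for sh4 (-1.45 and -1.64), and for sh4 in a fit of the 2 groups alone (-1.65). NOTUM, which strips the lipid from WNT ligands, measured 2.01 ± 0.389 CPM with NC, 1.65 ± 0.719 CPM with sh1 and 2.27 ± 0.506 CPM with sh4 and was not called.

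R-spondins bind LGR receptors and thereby clear RNF43 and ZNRF3 from the membrane. RSPO3 rose under both labels, from 13.2 ± 7.19 to 75.3 ± 18.8 and 54.5 ± 7.58 CPM (2.52 (adjusted p = 2.98e-04) and 2.05 (adjusted p = 4.14e-04)). The R-spondin receptor LGR5 measured 11.1 ± 3.75 CPM with NC, 3.17 ± 1.54 CPM with sh1 and 4.75 ± 3.61 CPM with sh4 and was called lower with sh1 (-1.81 (adjusted p = 0.0461)). The LGR5 call was lost, at -2.02 to -1.52, without any one of the NC libraries or sh1 replicates 1 and 3. RNF43 fell with sh1, from 11.8 ± 1.03 to 5.396 ± 1.05 CPM (-1.12 (adjusted p = 4.05e-04)), and was also lower there than with sh4 (13.3 ± 0.859 CPM, -1.30 (adjusted p = 2.60e-04)). ZNRF3 was not called (0.34 (adjusted p = 0.0194) and 0.48 (adjusted p = 0.00173)). APCDD1, a membrane inhibitor that binds WNT and LRP proteins, measured 10.5 ± 3.44 CPM with NC, 21.3 ± 3.48 CPM with sh1 and 24.2 ± 1.36 CPM with sh4 and was called higher under both labels (1.02 (adjusted p = 0.00321) and 1.20 (adjusted p = 6.10e-04)). With sh1 it sat at the limit, at 0.95, 0.84 and 0.90 without NC replicate 1, NC replicate 2 or sh1 replicate 2. Other scalings also ended that call, just short of 2-fold with RLE scaling and DESeq2, and at 0.98 with library size alone, which ended the sh4 call too (0.93).

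LEF1 (chromosome 4, 108047545 to 108168956), both a partner and a target of β-catenin, was not called. LEF1 measured 40.1, 46.9 and 58.0 CPM in the NC organoids, 41.6, 46.9 and 40.2 CPM in those labelled sh1 and 42.3, 45.7 and 52.0 CPM in those labelled sh4. The 3 groups overlapped. Its log2 fold change was -0.17 (SE 0.13, adjusted p = 0.321) with sh1 and -0.050 (SE 0.13, adjusted p = 0.756) with sh4, with 95% intervals of -0.47 to 0.13 and -0.35 to 0.25. CTNNB1 measured 423, 452 and 431 CPM in the NC organoids, 689, 735 and 663 CPM in those labelled sh1 and 613, 554 and 616 CPM in those labelled sh4. CTNNB1 was lowest in NC, and its groups did not overlap. Its change was 0.68 (SE 0.069, adjusted p = 6.12e-05) and 0.45 (SE 0.069, adjusted p = 2.71e-04), under 2-fold. TCF7, TCF7L1 and TCF7L2 were not called, with changes between -0.089 and 0.33. SP5 fell under both labels, from 4.50 ± 1.45 to 0.896 ± 0.0637 and 1.47 ± 0.714 CPM (-2.32 (adjusted p = 0.00129) and -1.61 (adjusted p = 0.00432)).

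Of the feedback genes, NKD1 rose with the sh1 label, and AXIN2 and NKD2 were not called. AXIN2 measured 35.6, 36.9 and 37.8 CPM in the NC organoids, 53.1, 54.0 and 52.6 CPM in those labelled sh1 and 36.8, 42.4 and 51.3 CPM in those labelled sh4. The sh1 libraries were all above NC, and sh4 overlapped NC. AXIN2 changed by 0.53 (SE 0.11, adjusted p = 0.00286) with sh1 and 0.24 (SE 0.11, adjusted p = 0.0694) with sh4, neither past 2-fold, and the second turned to -0.024 when libraries were scaled by size alone. NKD1 measured 42.0 ± 10.1 CPM with NC, 91.4 ± 9.07 CPM with sh1 and 78.7 ± 16.7 CPM with sh4, rose with sh1 (1.12 (adjusted p = 0.00123), and 0.93 without NC replicate 1, which ends the call) and changed by 0.90 (adjusted p = 0.00215) with sh4. NKD2 was not called (0.25 and -0.46). Of these target and feedback genes, SP5 was thus lower under both labels, NKD1 higher under 1, RNF43 lower under 1, and AXIN2, LEF1, ZNRF3 and NKD2 uncalled.

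**Figure D4:**
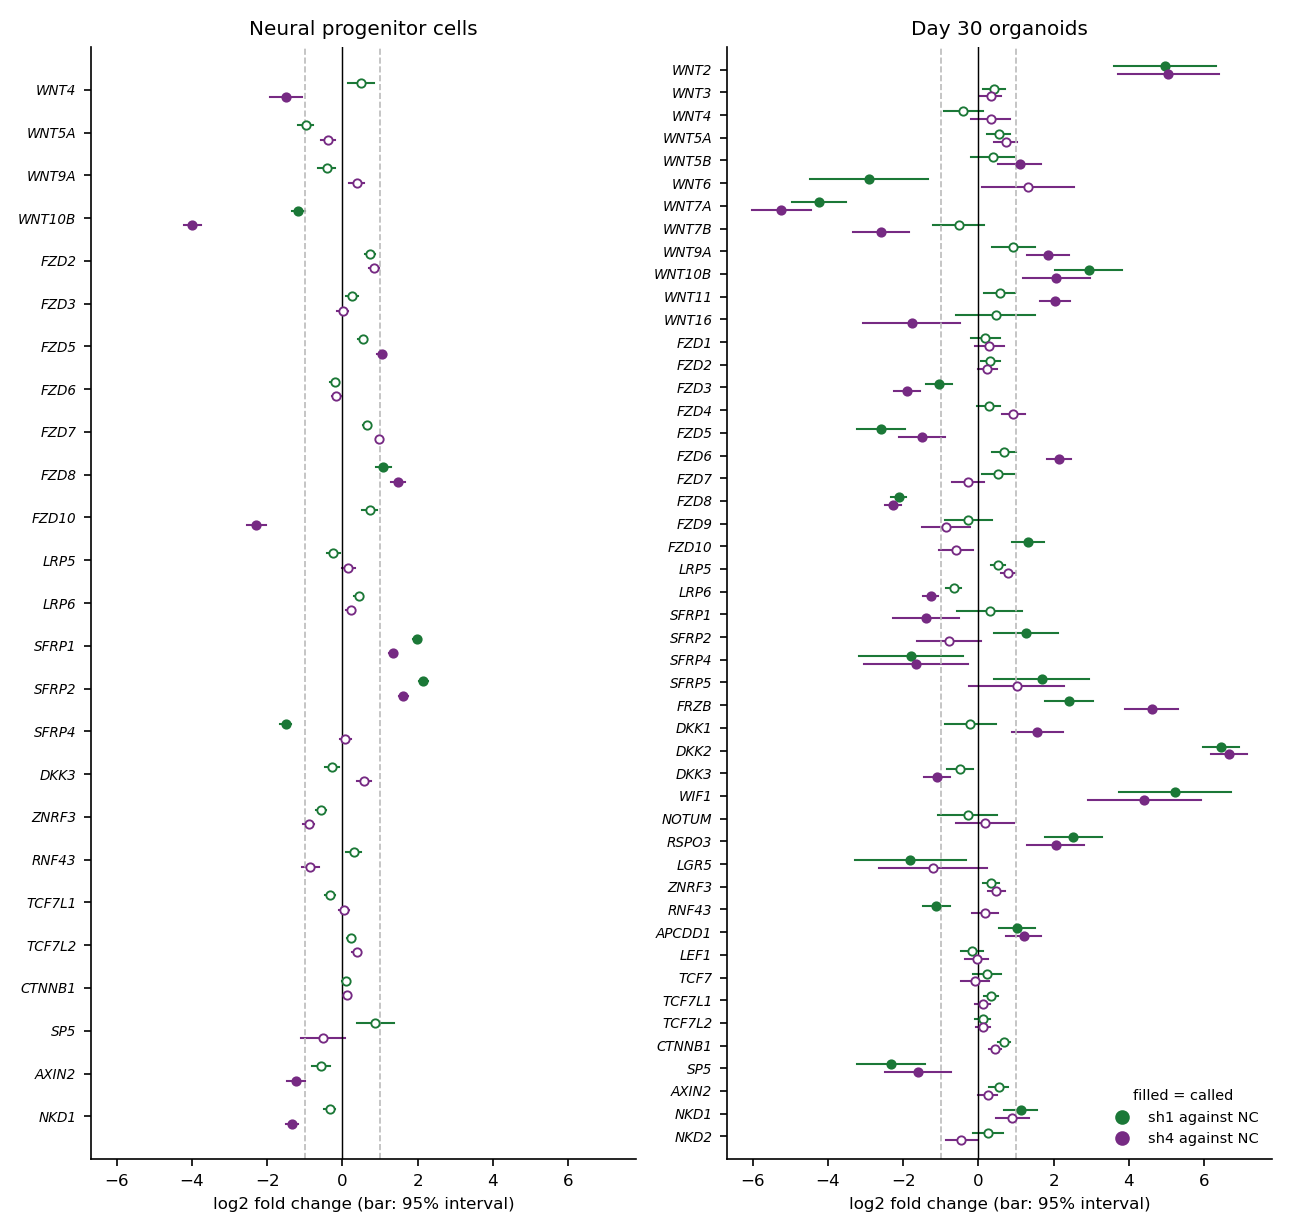
Log2 fold change of each tested member against NC in NPCs (left, 25 genes) and day 30 organoids (right, 48 genes), with 95% intervals. Filled points were called, open ones were not, and dashed lines mark 2-fold. Intervals are wider in organoids, and DKK2, WNT2 and WIF1 lie farthest to the right there.

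By the same joined exon length, on which the order depends, SFRP1 was the most abundant member in NC organoids (124 ± 9.96 CPM per kb), followed by SFRP2 (52.5 ± 5.32). FZD2 (37.6 ± 1.54), CTNNB1 (36.5 ± 1.26) and FRZB (31.9 ± 8.32) came next and did not differ beyond their spread. With the sh4 label the leading member was FRZB, at 777 ± 139 CPM per kb, and SFRP1 was at 47.1 ± 25.5. Among ligands in NC, WNT7B (5.83 ± 1.51), WNT7A (5.59 ± 1.78), WNT5B (5.37 ± 0.201) and WNT5A (5.33 ± 1.05) were at like levels, with differences inside their spread. With sh4, WNT5B was at 11.5 ± 1.92, WNT5A at 8.83 ± 0.864, WNT11 at 8.56 ± 0.787 and WNT7A at 0.145 ± 0.0548 CPM per kb.

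All 60 other pathway genes were tested in organoids, where 13 rose and 8 fell with the sh1 label, beside 12.1% and 7.95% of all tested genes, and 13 rose and 10 fell with sh4, beside 20% and 15.5%. The sh4 counts are shares of 60 close to that background. WLS, which carries lipidated WNT ligands to the cell surface, rose with sh1 (1.54 (adjusted p = 2.06e-04)). Among 14 surface genes, 6 rose and 3 fell with sh1 and 6 rose and 1 fell with sh4. SOSTDC1, a secreted WNT and BMP antagonist, rose under both labels (3.81 (adjusted p = 5.31e-06) and 4.79 (adjusted p = 5.61e-07)), GPC3 rose under both (2.31 (adjusted p = 2.73e-04) and 4.10 (adjusted p = 4.60e-06)), SHISA2, which holds Frizzled receptors inside the cell, fell under both (-1.39 (adjusted p = 2.39e-05) and -2.43 (adjusted p = 5.83e-07)), and the receptor RYK rose with sh4 (1.07 (adjusted p = 1.33e-06)). Of 21 destruction complex and Dishevelled genes, 1 rose and 2 fell with sh1 and 1 rose and 4 fell with sh4. The kinase GSK3B (-1.26 (adjusted p = 5.73e-07)) and the tankyrase TNKS (-1.21 (adjusted p = 1.79e-06)) fell with sh4, CXXC4 fell under both labels (-1.20 (adjusted p = 6.23e-05) and -2.09 (adjusted p = 1.13e-06)), and DACT2 rose under both (2.76 (adjusted p = 1.25e-04) and 2.90 (adjusted p = 3.05e-05)).

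Of 11 nuclear co-factors, TLE2 rose under both labels (1.65 (adjusted p = 2.36e-05) and 1.38 (adjusted p = 2.16e-05)), NLK fell with sh4 (-1.07 (adjusted p = 1.04e-05)), and PYGO1 was higher with sh1 than with sh4 (1.06 (adjusted p = 3.06e-04)). In the planar cell polarity list 3 of 9 rose and 3 fell with sh1, and 4 rose and 4 fell with sh4, beside the same shares of all genes (12.1% and 7.95%, 20% and 15.5%). DAAM1 fell under both labels (-1.07 (adjusted p = 1.99e-05) and -1.503 (adjusted p = 1.07e-06)) and PRICKLE1 rose under both (2.13 (adjusted p = 1.35e-05) and 1.52 (adjusted p = 3.12e-05)), while VANGL2 fell (-1.77 (adjusted p = 2.79e-06)) and VANGL1 rose (1.42 (adjusted p = 3.87e-06)) with sh4. Among further targets, BAMBI rose with sh4 (1.09 (adjusted p = 2.34e-06)) and TNFRSF19 with sh1 (1.10 (adjusted p = 0.00113)).

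The change of the sh1 and sh4 labels against NC, averaged over both, was compared between NPCs and organoids in a joint fit of genes found in both tables. Of the 25 members tested, 16 differed by at least 2-fold at an adjusted p under 0.05, 8 in each direction, against 34.4% of all 10020 genes tested. The difference is given as the NPC change minus the organoid change on the log2 scale. FZD8 (3.49 (SE 0.12, adjusted p = 1.69e-17)) and FZD5 (2.85 (SE 0.19, adjusted p = 1.76e-12)) had the largest positive differences, since both were higher than NC in NPCs and lower in organoids. SFRP1 (2.23 (SE 0.28, adjusted p = 1.16e-07)), SP5 (2.16 (SE 0.38, adjusted p = 1.63e-05)), SFRP2 (1.66 (SE 0.27, adjusted p = 5.73e-06)), FZD3 (1.62 (SE 0.14, adjusted p = 1.15e-10)) and LRP6 (1.30 (SE 0.086, adjusted p = 1.68e-12)) were also relatively higher in NPCs. SFRP4 passed at 1.02 (SE 0.39, adjusted p = 0.0207), a call that rested on 1 library: it was 0.055 without organoid NC replicate 1, and also lost the call, at 0.90 to 1.00, without NPC sh1 replicate 5, NPC sh4 replicate 5, organoid sh1 replicate 3 or organoid sh4 replicate 1.

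WNT10B had the largest negative difference, at -5.08 (SE 0.29, adjusted p = 1.05e-13), having fallen in NPCs and risen in organoids. The feedback genes NKD1 (-1.84 (SE 0.16, adjusted p = 1.80e-10)) and AXIN2 (-1.28 (SE 0.16, adjusted p = 1.37e-07)) were on the same side, with FZD6 (-1.58 (SE 0.12, adjusted p = 1.82e-11)), WNT9A (-1.40 (SE 0.21, adjusted p = 1.40e-06)), WNT5A (-1.30 (SE 0.14, adjusted p = 1.57e-08)), ZNRF3 (-1.13 (SE 0.11, adjusted p = 8.35e-10)) and FZD10 (-1.13 (SE 0.18, adjusted p = 3.98e-06)). FZD10 lost the call without organoid NC replicate 1 (-0.90). Its mean level was above NC with sh1 and below NC with sh4 in both systems, so its average joins opposite changes. SFRP1 and SFRP2 in organoids and SP5 in NPCs also had means above NC with sh1 and below it with sh4. WNT9A in NPCs had the reverse order. The 9 other members did not pass, with differences from -0.67 (LRP5) to 0.96 (DKK3). System and processing cannot be told apart here, because the tables were made separately and the NPC table was selected, and KDM2A itself differed by -1.05 (SE 0.080, adjusted p = 1.97e-11).

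**Figure D5:**
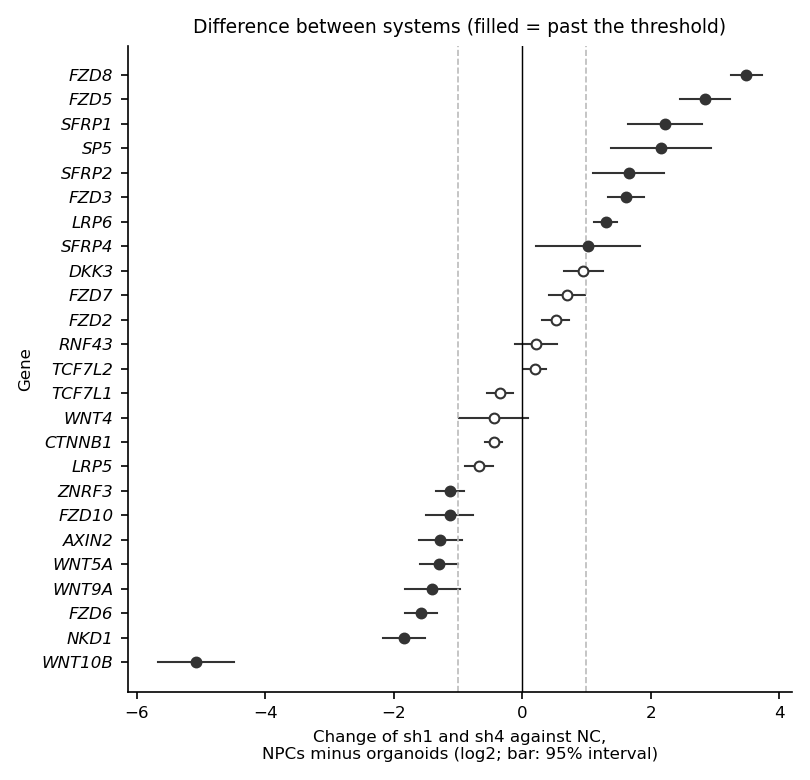
Change against NC in NPCs minus that in organoids for the 25 members found in both tables (log2 scale, mean of the sh1 and sh4 labels), with 95% intervals. Filled points passed the threshold and dashed lines mark 2-fold. FZD8 and FZD5 lie at the upper end and WNT10B at the lower end.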

How the data were processed

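Poly(A) RNA of 15 NPC and 9 organoid libraries was sequenced. The authors deposited 1 table of estimated counts per system, not normalized, in which 82.4% (NPC) and 91.0% (organoids) of the expected counts are whole. Per the submitters' processing notes, STAR and featureCounts were used with GRCh38.p13. Versions, strand setting and the origin of fractional values are not given in the sources used here, so a gene and its antisense partner cannot be told apart.

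Values were rounded to whole counts and fitted with edgeR 4.0.16 (quasi-likelihood test, TMM, filterByExpr with a minimum count of 10, limma 3.58.1, R 4.3.3), with 1 fit per table over its 3 groups, 9860 and 19672 genes tested, and a joint fit of 10020 genes for the difference between systems. Genes were called at an adjusted p under 0.05 and a log2 fold change of at least 1. Alternatives were RLE scaling, library size alone, DESeq2 1.42.0, no filter on low counts, the 2 compared groups alone, a replicate block, and leaving out each library. On simulated counts, the fit recovered 100% of 2.5-fold and 4-fold changes in the 9734-gene NPC step for sh1 against NC, and 84% and 96% in the 18314-gene organoid step. The changed genes were drawn from those above 2 CPM in NC, and all other genes kept their NC mean. Members with lower NC levels and broad shifts between groups are therefore not covered by it. No 2 libraries of a group agreed within sampling noise.

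Members and lists were chosen with earlier results of these data known. Every library's value is given for members called in at least 1 comparison with a highest group mean of at least 2 CPM, at most 14 per system by adjusted p, and for CTNNB1, AXIN2 and LEF1. Other pathway genes are named by the same call and level, at most 4 per list. Gene positions and exon lengths come from GENCODE 29, promoters from RefSeq (GRCh38.p14). Cell type markers were summed per library for 11 lists. 1 marker is not reported here and enters no sum.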

Additional observations from a re-analysis of the deposited data

Results flagged for a closer look

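In the groups of 5 NPC libraries, 2 member values stood far from their group by Dixon's test, where 75 groups were looked at and chance flags about 1 in 20. FZD3 measured 418 CPM in sh4 replicate 1, above the other 4 libraries, and SFRP2 measured 277 CPM in sh1 replicate 2, below the other 4 libraries and still above every NC library.

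In 16 of 25 members the change of the sh1 and sh4 labels against NC differed between NPCs and organoids in the joint edgeR fit. Of all 10020 genes in that fit, 34.4% passed the same threshold. The difference, NPC change minus organoid change on the log2 scale, was -1.30 for WNT5A, -1.40 for WNT9A, -5.08 for WNT10B, 1.62 for FZD3, 2.85 for FZD5, -1.58 for FZD6, 3.49 for FZD8 and -1.13 for FZD10. It was 1.30 for LRP6, 2.23 for SFRP1, 1.66 for SFRP2, 1.02 for SFRP4, -1.13 for ZNRF3, 2.16 for SP5, -1.28 for AXIN2 and -1.84 for NKD1. The cell type markers of the organoid groups moved as well, and their part in these differences was not tested.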

How the results depend on the processing

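Over 2425 alternative values of 132 member results (92 of them called), 56 lost the call, 8 gained it and 11 changed sign, and 17 of the 92 called results lost the call at least once. Counts of members called stayed within 1.5 times the reported ones except for organoids sh1 over sh4 higher, 9 with library size alone (5 reported), and 2 counts that moved on leaving out 1 library: organoids sh1 over NC higher, 7 to 12 (7 without NC replicate 1), and organoids sh1 over sh4 higher, 5 to 8 (8 without sh4 replicate 3). Over all tested genes the matching counts were 2282 with library size alone (1539 reported), 2131 without NC replicate 1 (2381 reported) and 1582 without sh4 replicate 3 (1539 reported). With library size alone, signs turned for CTNNB1 in NPCs (-0.054 sh1, -0.021 sh4), SFRP4 in NPCs with sh4 (-0.068), and in organoids for AXIN2 with sh4 (-0.024) and, between the labels, DKK2 (0.011), LEF1 (0.10) and WNT2 (0.14). On leaving out 1 library, LEF1 with sh4 ranged from -0.17 to 0.097 and was 0.017 without sh4 replicate 1, and WNT2 between the labels ranged from -0.89 to 0.21 and was 0.15 without sh1 replicate 3. None of these was called, and the cause was not tested. Library size alone also shifted the organoid median of all genes for sh4 over NC from -0.0055 to -0.28 and the share of its calls that were higher from 56.5% to 43.3%. For sh1 over sh4 that share went from 41.1% to 57.3%, and in NPCs for sh1 over NC from 34.3% to 23.7%.

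Replicate numbers in the labels were not taken to pair the libraries, since not every same-numbered pair correlated above 0.1: same-numbered libraries correlated at -0.0995 to 0.393 in NPCs and -0.158 to 0.0358 in organoids, and 7 of 15 and 1 of 9 pairs matched their own number best. In NPCs replicates 1 and 5 correlated above 0.1 in each of the 3 comparisons, a hint from the data of shared variation there. With a replicate block, 10 members were called higher and 8 lower for organoids sh1 over NC, 13 and 11 for sh4 over NC, and 15 differed between systems. Of all 19672 genes in that organoid fit, 2298 were called higher and 1476 lower for sh1 over NC, and 3882 and 3005 for sh4 over NC. Between systems, 1384 of all 10020 genes passed on the positive side and 2075 on the negative side. The block ended the calls of SFRP4 with sh1 (-1.65), SFRP5 with sh1 (1.52), SFRP4 with sh4 (-1.38) and the SFRP4 difference between systems (0.94). Within NPCs it ended no member call. Depth limits the called members DKK2, SFRP4, SP5, WIF1, WNT2, WNT6, WNT7A, WNT10B and WNT16 in organoids, each with a mean under 3 CPM in at least 1 group.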
